A study of Mus musculus with 4 samples.

Results

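The Iroquois homeobox family consists of 6 genes, Irx1 to Irx6, taken here by symbol from tables of 25239 gene IDs for E13.5 mouse retina (E, embryonic day). All 6 were found, each on 1 row in every library. RNA was sequenced from 2 libraries of control retina and 2 libraries of retina labelled Isl1cKO, a conditional knockout of the LIM-homeodomain gene Isl1, and the study asked how the retinal transcriptome changes when Isl1 is lost. The driver of the deletion, the deleted exons, the alleles carried by the control embryos, the strain and the number of retinae per library are not given in the sources used here. No label says whether the libraries of a group came from separate litters, so p-values measure only the spread between these libraries, which may be technical.

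Iroquois genes encode transcription factors of the TALE class, whose homeodomain carries an inserted loop of extra amino acids. In mammals they lie in a pair of clusters that arose by duplication, and neighbours within a cluster often share enhancers and expression domains. In the developing mouse retina the family is known mainly from the ganglion cell layer, and Irx5 and Irx6 are used later by subtypes of cone bipolar cells. Isl1 acts with Pou4f2 in the differentiation of retinal ganglion cells, the neurons whose axons form the optic nerve.

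The deposited coordinates (mouse build mm10) placed the members in their known clusters. Irx1 (chromosome 13, 71958232 to 71963723, minus strand), Irx2 (72628820 to 72634196, plus strand) and Irx4 (73260497 to 73269620, plus strand) spanned 1311 kb of chromosome 13. Gaps of 665 kb and 626 kb separated these neighbours. Irx3 (chromosome 8, 91798511 to 91801654, minus strand), Irx5 (92357796 to 92361456, plus strand) and Irx6 (92674289 to 92680956, plus strand) spanned 882 kb of chromosome 8. The gap from Irx3 to Irx5 was 556 kb, and the gap from Irx5 to Irx6 was 313 kb. In the GENCODE M21 annotation of the same build, the antisense gene Irx3os overlaps Irx3 and the antisense gene Gm45505 overlaps Irx6. The libraries were strand-specific, but whether strand was used when reads were assigned is not given in the sources used here, so reads of these pairs may not be separable.

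Promoter sequences were matched in RefSeq for 3 of the 6 members, Irx2, Irx3 and Irx4, each from 250 bases before to 50 bases after the annotated start on build GRCm38.p6. They are shown because these 3 genes fell; Irx5, which fell too, had no match. Capitals mark matches to TAAT, the core of many homeodomain sites, CTAATNG, which covers a motif known for Isl1, GACCACCCA, the site of Gli factors, and ACANNTGT, a palindrome known for Iroquois proteins. Both strands were searched, and any CTAATNG match also holds TAAT. The first window is chr13:72628570-72628869 (plus strand), the second chr8:91801605-91801904 (minus strand) and the third chr13:73260247-73260546 (plus strand).
Irx2: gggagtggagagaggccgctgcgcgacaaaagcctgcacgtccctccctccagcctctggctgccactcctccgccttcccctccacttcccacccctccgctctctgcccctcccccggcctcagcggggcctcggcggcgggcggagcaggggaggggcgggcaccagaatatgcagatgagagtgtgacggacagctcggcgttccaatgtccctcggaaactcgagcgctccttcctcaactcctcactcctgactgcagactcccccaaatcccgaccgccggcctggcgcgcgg
Irx3: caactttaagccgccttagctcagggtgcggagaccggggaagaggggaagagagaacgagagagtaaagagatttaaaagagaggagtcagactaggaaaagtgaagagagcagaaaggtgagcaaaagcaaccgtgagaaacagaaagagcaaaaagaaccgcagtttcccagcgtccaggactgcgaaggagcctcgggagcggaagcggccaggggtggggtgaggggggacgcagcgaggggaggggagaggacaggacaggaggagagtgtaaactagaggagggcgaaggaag
Irx4: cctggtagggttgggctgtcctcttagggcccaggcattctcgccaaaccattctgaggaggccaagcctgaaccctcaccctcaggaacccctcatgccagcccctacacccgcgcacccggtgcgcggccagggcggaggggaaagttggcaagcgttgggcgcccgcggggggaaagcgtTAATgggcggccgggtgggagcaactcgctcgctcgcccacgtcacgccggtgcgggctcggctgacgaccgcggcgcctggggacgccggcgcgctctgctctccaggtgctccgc
The Irx4 window held 1 TAAT, beginning 67 bases before the start, and the other 2 windows held none. No window held CTAATNG, GACCACCCA or ACANNTGT. Of 32851 RefSeq promoter windows of the same length, 58.0% held TAAT, 5.76% CTAATNG, 0.253% GACCACCCA and 7.38% ACANNTGT. The windows of Irx2 and Irx4 were rich in G and C, at 69.0% and 70.7%, above 88.9% and 91.4% of all windows. That of Irx3, at 56.0%, was closer to the median of 52.7% and above 59.7% of windows. The Irx2, Irx3 and Irx4 windows held 25, 14 and 31 CpG dinucleotides, against a median of 7. These counts were above those of 81.6%, 63.7% and 89.4% of windows.

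Aligned sequence, from the ratio of coverage to FPKM, was 12.6 to 14.3 gigabases per library and lowest in Isl1cKO replicate 2, which also stood farthest along the first principal component (30.5, against 7.13 for Isl1cKO replicate 1 and -21.8 and -15.8 for the controls). The tissue label was borne out by retinal progenitor markers: 9 genes of that list summed to 4194 to 4345 TPM in control and 3865 to 4153 TPM in Isl1cKO. Fgf15 was the largest part of these sums, at 2012 and 1816 TPM in control and 1521 and 1473 TPM in Isl1cKO. Rax and Pax6 were higher in both Isl1cKO libraries than in either control. Of the 9 genes, 4 had a negative log2 fold change, beside 63.8% of all genes tested, and the median was 0.13. TPM counts transcripts, scaled to their length, out of a fixed total of 1000000 in each library. The level of Isl1 itself was 242 and 201 TPM in control against 321 and 223 TPM in Isl1cKO, so the groups overlapped (log2 fold change 0.28, SE 0.21, adjusted p = 0.683 in limma). The targeted gene was therefore not lower in the libraries labelled Isl1cKO. The tables hold no value per exon, so they cannot check a deletion of single exons, and each direction below rests on the labels.

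In control retina the family was led by Irx2. Its level was 42.1 ± 1.73 TPM, followed by Irx3 at 25.3 ± 4.58, Irx5 at 20.3 ± 4.78, Irx6 at 8.07 ± 1.45, Irx4 at 5.42 ± 1.46 and Irx1 at 0.611 ± 0.242 TPM (SD, n = 2 each). The values of Irx3 and Irx5 overlapped between the control libraries, though Irx3 exceeded Irx5 within each (TPM ratio 1.21 and 1.31). Their order was not tested. The other neighbours in this order did not overlap. Under Isl1cKO the order was Irx2 at 17.0 ± 1.14 TPM, Irx6 at 2.12 ± 0.823, Irx3 at 2.03 ± 0.242, Irx5 at 1.30 ± 0.359, Irx1 at 0.199 ± 0.0419 and Irx4 at 0.0541 ± 0.000225 TPM (SD, n = 2 each). Irx6 overlapped with Irx3 and, at its lower value, with Irx5 there.

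**Figure D1:**
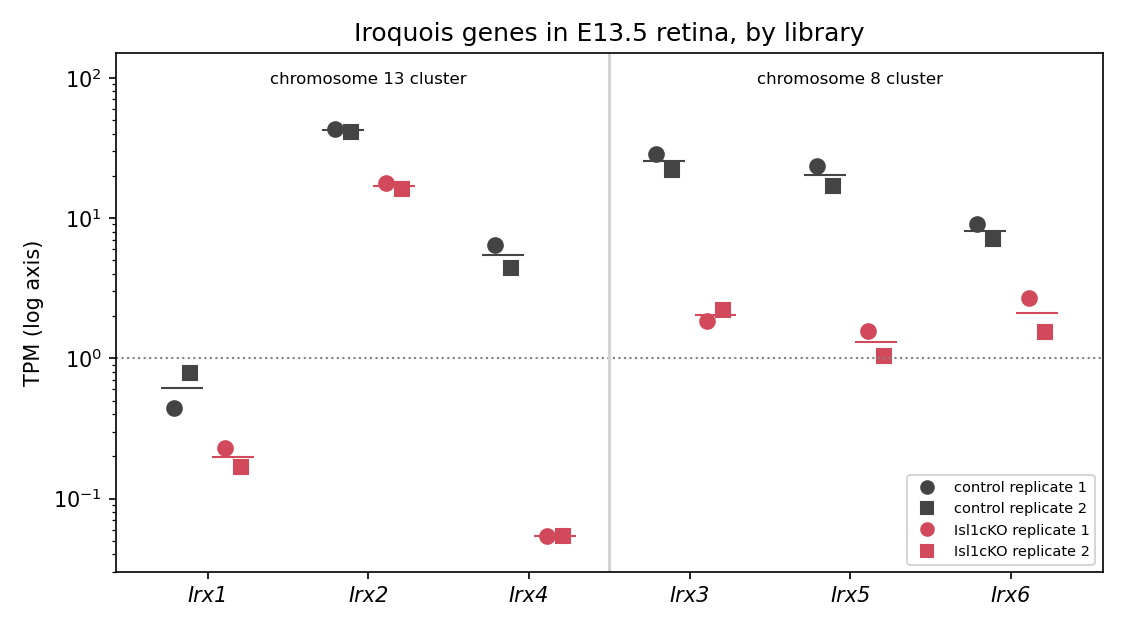
TPM on a log axis for the 6 Iroquois genes, with 1 point per library, circles for replicate 1 and squares for replicate 2, bars at the group means and a dotted line at 1 TPM. For each gene both control points (grey) lie above both Isl1cKO points (red), and the gap is widest for Irx4 and narrowest for Irx2 and Irx1.

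Irx3 and Irx5, the pair of chromosome 8 genes with a joint role in heart and limb patterning, were lower by more than 10-fold in each pairing of a control with an Isl1cKO library. Irx3 was measured at 28.6 TPM in control replicate 1, 22.1 TPM in control replicate 2, 1.86 TPM in Isl1cKO replicate 1 and 2.20 TPM in Isl1cKO replicate 2. Its mean was 12.5-fold lower, and the lowest and highest pairings of libraries gave 10.04-fold and 15.4-fold. Irx3 encodes a factor best known from neural tube patterning, and it fell by 3.11 on the log2(TPM + 1) scale (SE 0.15, adjusted p = 0.0119 in limma). Irx5 stood at 23.7 and 16.9 TPM in control and at 1.55 and 1.05 TPM in Isl1cKO. Both of its Isl1cKO values were near the 1 TPM that served as the filter on low values, and mean coverage over the gene there was 8.30 and 5.19 reads per base, against 124 and 83.5 in control. The mean was 15.6-fold lower, and the log2 fold change was -3.20 (SE 0.20, adjusted p = 0.0199 in limma).

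Irx6, the third gene of the chromosome 8 cluster and later a gene of cone bipolar subtypes, stood at 9.09 and 7.04 TPM in control and at 2.70 and 1.53 TPM in Isl1cKO. The groups did not overlap, and the mean TPM ratio was 3.81. Its log2 fold change of -1.56 (SE 0.23) did not pass the threshold of 0.05, with an adjusted p of 0.117 in limma and an unadjusted p of 0.00154.

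On chromosome 13, Irx2 had the smallest change among the 4 members past the threshold and the smallest SE of the 5 members tested. It stood at 43.3 and 40.9 TPM in control and at 17.8 and 16.2 TPM in Isl1cKO. The mean was 2.48-fold lower, with pairings of libraries from 2.30-fold to 2.68-fold, and the log2 fold change was -1.26 (SE 0.09, adjusted p = 0.0249 in limma). Irx2 thus fell, yet each Isl1cKO library still held more of it than of any other member.

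Irx4, best known for ventricular gene expression in the heart and, in the chick, for repressing Slit1 in the retina, stood at 6.46 and 4.39 TPM in control and at 0.0540 and 0.0543 TPM in Isl1cKO. Mean coverage was 33.9 and 21.7 reads per base in control and 0.288 and 0.269 in Isl1cKO. The ratio of the mean TPM was 100.2, with pairings from 80.8 to 119.6, and its precision is unknown because coverage in Isl1cKO was below 1 read per base and read counts are not in the tables. On the log2(TPM + 1) scale, which compresses such low levels, Irx4 fell by 2.59 (SE 0.17, adjusted p = 0.0216 in limma). Irx4 entered the test through its control values alone, so its passing the filter already required a difference.

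Irx1 stood at 0.439 and 0.782 TPM in control and at 0.228 and 0.169 TPM in Isl1cKO. It was under 1 TPM in each library and was not tested with the filter. With every gene above 0 included, its log2 fold change was -0.42 (SE 0.13), with an adjusted p of 0.429 in limma. Mean coverage was 2.30 and 3.87 reads per base in control against 1.22 and 0.837 in Isl1cKO, the thinnest coverage of the family in control.

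Of the 5 members tested, 4 passed an adjusted p of 0.05, and all 4 were lower in the libraries labelled Isl1cKO. Irx4, included in the counts of this paragraph, entered the test through its control values alone, so its lower direction was already set. Over the 13984 genes tested, 65 genes passed in that direction, which is 0.465%. In all 6 members both control values lay above both Isl1cKO values, as they did in 30.0% of the genes tested. Without a test, the log2 fold change was at or below -1 in each of the 5 members and in 1.48% of genes tested, and it was below 0 in 63.8% of them. The family was chosen with these results known, so its count is a description and is not independent evidence. Irx3 and Irx5 stood among the lowest fold changes of the whole table, with 14 and 13 genes below them. Ranked by p-value, Irx3 was number 16, Irx5 number 30, Irx4 number 36, Irx2 number 43 and Irx6 number 184.

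**Figure D2:**
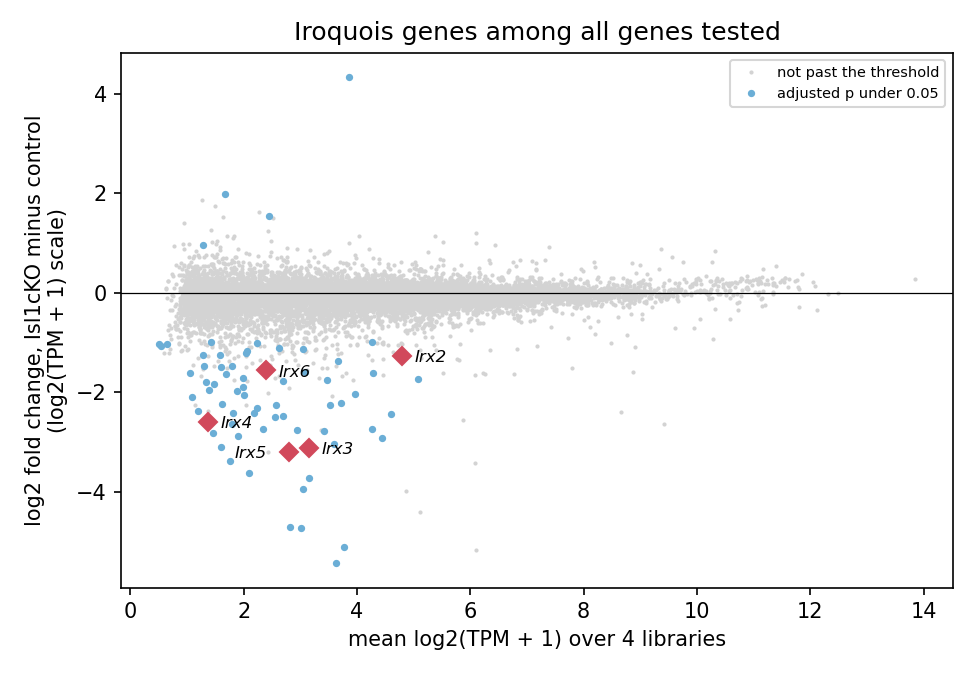
Log2 fold change (Isl1cKO minus control, log2(TPM + 1) scale) against mean log2(TPM + 1) over the 4 libraries for the 13984 genes tested, with genes past the threshold in blue and the 5 tested Iroquois genes as red diamonds. Irx3 and Irx5 lie side by side near -3, Irx4 lies at -2.59 and a low mean level, and Irx2 lies at -1.26 and the highest mean level of the family.

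The calls rest on all 4 libraries together. Fitted with 1 library left out, where the lone library of a group is assumed to vary like the other group, the number of members past the threshold was 2 without control replicate 2 (Irx3 and Irx4) and 0 when any single one of the other 3 libraries was left out, while all 5 stayed lower in each fit. Without Isl1cKO replicate 2, the library that stood apart, the log2 fold changes were -1.20 for Irx2, -3.19 for Irx3, -2.59 for Irx4, -3.04 for Irx5 and -1.28 for Irx6, with adjusted p-values in limma from 0.0756 to 0.216. When every gene above 0 was kept, which made 19784 tested genes, no member passed in limma (lowest adjusted p 0.0604, for Irx3). Over the alternatives that kept all 4 libraries, the adjusted p of Irx3 ran from 0.00235 to 0.0604 in limma.

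**Figure D3:**
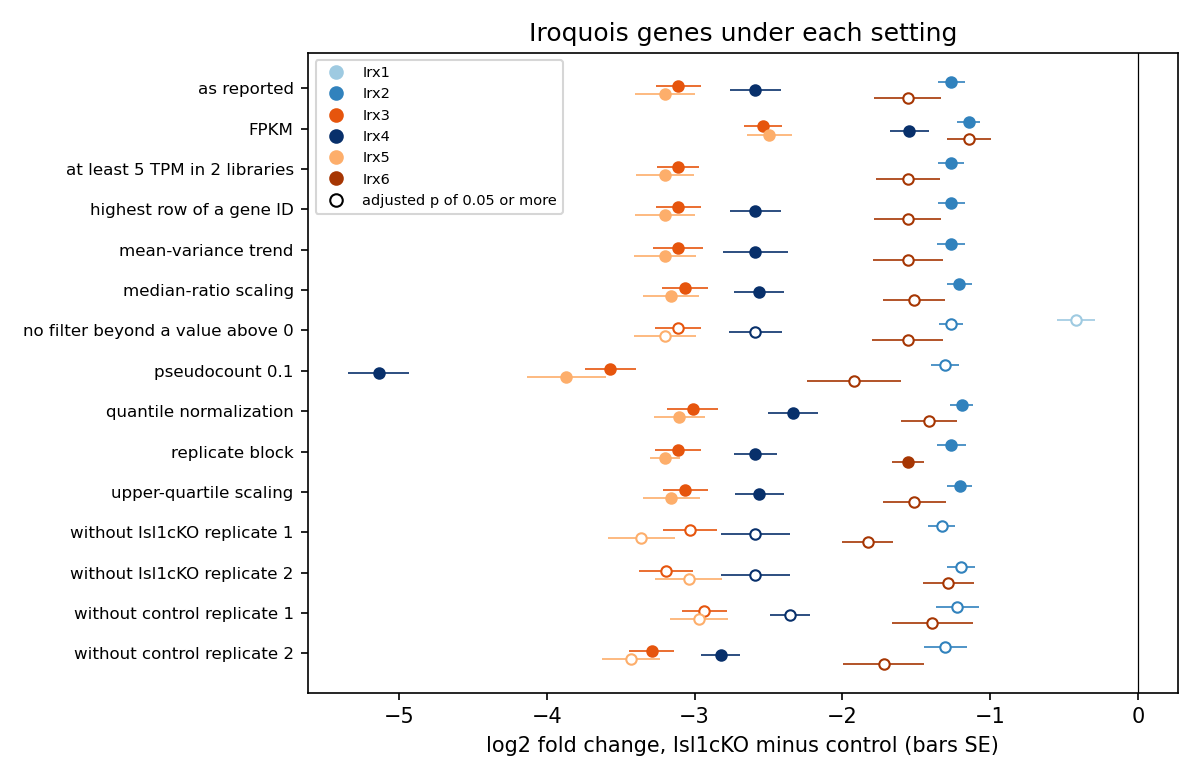
Log2 fold change (Isl1cKO minus control) of each Iroquois gene with its SE under the reported setting and each alternative, filled where the adjusted p was under 0.05 and open elsewhere. Every point lies below 0, and the points of Irx3 and Irx5 stay to the left of those of Irx2 and Irx6 throughout.

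The make-up of the family differed between the groups. The 6 genes summed to 111.5 and 92.1 TPM in control and to 24.2 and 21.2 TPM in Isl1cKO, a 4.49-fold lower mean. Irx2 made up 38.8% and 44.4% of that sum in control and 73.5% and 76.4% in Isl1cKO. Irx3 went from 25.6% and 24.0% to 7.69% and 10.4%, Irx5 from 21.2% and 18.4% to 6.43% and 4.94%, and Irx4 from 5.79% and 4.77% to 0.223% and 0.257%. The share of Irx6 was 8.15% and 7.64% in control and 11.2% and 7.25% in Isl1cKO, so its groups overlapped. With 2 libraries against 2, an exact permutation test over libraries cannot give a two-sided p below 0.333, so shares and ratios are given as descriptions.

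**Figure D4:**
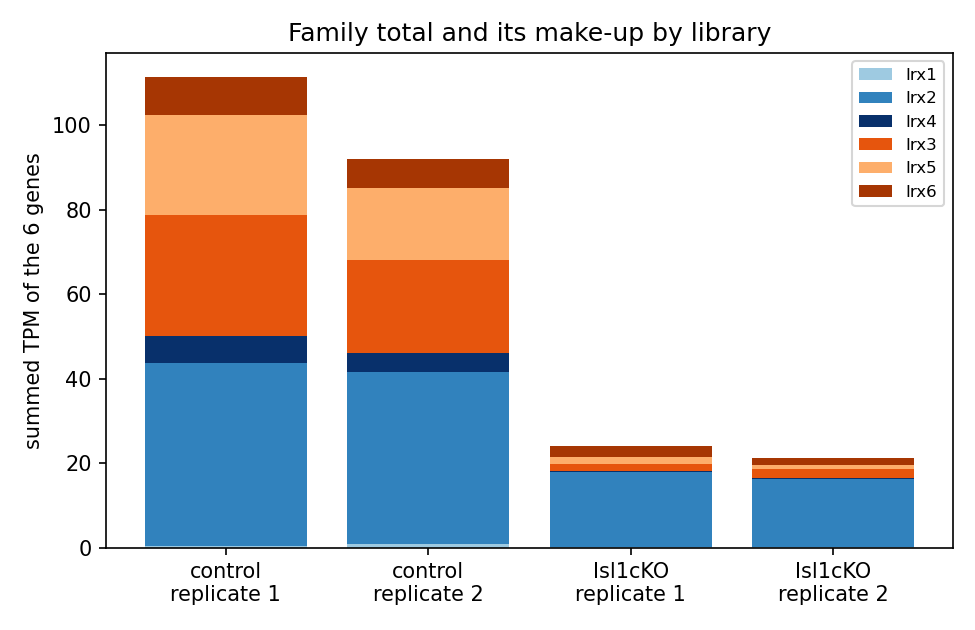
Summed TPM of the 6 Iroquois genes in each library, stacked by gene, blue shades for the chromosome 13 cluster and orange shades for the chromosome 8 cluster. The bars reach 111.5 and 92.1 TPM in control and 24.2 and 21.2 TPM in Isl1cKO, where Irx2 fills most of the bar.

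Taken by cluster, Irx3, Irx5 and Irx6 together held 61.3 and 46.0 TPM in control and 6.11 and 4.78 TPM in Isl1cKO, a 9.86-fold lower mean. Irx1, Irx2 and Irx4 together held 50.2 and 46.0 TPM in control and 18.0 and 16.4 TPM in Isl1cKO, a 2.80-fold lower mean. The chromosome 8 cluster thus made up 52.5% ± 3.53 of the family sum in control and 23.9% ± 1.91 in Isl1cKO (SD, n = 2 each). As the mean of log2(TPM + 1) over the members, it exceeded the chromosome 13 cluster by 1.32 and 1.02 in control, and by 0.05 and -0.12 in Isl1cKO. This contrast depends on the pseudocount, which compresses Irx1 and Irx4. With none, a choice made after seeing the data, the chromosome 8 cluster exceeded the other by 1.88 and 1.41 in control and by 1.72 and 1.52 in Isl1cKO, and the mean log2 TPM was lower by a near equal amount in both clusters (-3.19 on chromosome 8 and -3.17 on chromosome 13). On that scale the chromosome 13 value rests on the low levels of Irx4. The sums hide the spread within each cluster: on chromosome 13 the ratio of mean TPM, control to Isl1cKO, was 2.48 for Irx2 and 100.2 for Irx4, and on chromosome 8 it was 3.81 for Irx6 and 15.6 for Irx5. Differences between the fold changes of members were not tested.

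Ratios between members within a library do not depend on the library total. The TPM ratio of Irx3 to Irx5 was 1.21 and 1.31 in control and 1.20 and 2.10 in Isl1cKO, so the groups overlapped. The ratio of Irx3 to Irx2 was 0.660 and 0.541 in control against 0.105 and 0.136 in Isl1cKO, and the groups lay apart. The ratio of Irx6 to Irx5 was 0.384 and 0.416 in control against 1.74 and 1.47 in Isl1cKO, which reversed the order of these neighbours. Over the 4 libraries the profiles of Irx3 and Irx5, as centred log2(TPM + 1), lay 0.36 apart (Euclidean distance). Among all genes tested, 1 lay closer to Irx3 than Irx5 did, and 3 lay closer to Irx5 than Irx3 did. Irx2 and Irx6, which lie on different chromosomes, were 0.45 apart, but 135 genes lay closer to Irx2 and 61 closer to Irx6 than these were to each other. Irx4 of chromosome 13 was 0.54 from Irx3 and 0.65 from Irx5, both on chromosome 8. Than Irx3 and Irx4 were to each other, 9 genes lay closer to Irx3 and 17 closer to Irx4. For Irx4 and Irx5, 26 genes lay closer to Irx4 and 12 closer to Irx5. The distance was 1.36 from Irx2 to its chromosome 13 neighbour Irx4 and 1.65 from Irx5 to Irx6.

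The genes around the clusters were read from the same fit, within 1000 kb outside the outer members and between members. Of 9 neighbours tested around the chromosome 8 cluster and 14 around the chromosome 13 cluster, none (0) passed the threshold in limma, and 3 and 0 had an unadjusted p under 0.05. That share was 8.92% of all genes tested for lower genes and 3.20% for higher genes. Of the 3 around the chromosome 8 cluster, Capns2 entered the test through its control values alone. Its lower direction was therefore already set, and it was named after its values were seen. The median log2 fold changes were -0.15 and -0.07, beside -0.05 over all genes tested. Fto, which holds long-range enhancers of Irx3 in its introns, stood at 101.7 and 92.1 TPM in control and 88.2 and 94.7 TPM in Isl1cKO, with overlapping groups (log2 fold change -0.08, SE 0.10). Rpgrip1l, the gene next to Fto and a component of the ciliary transition zone, had a log2 fold change of -0.15 (SE 0.19).

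The noncoding gene Crnde (chromosome 8, 92326031 to 92356120, minus strand) begins 1.68 kb from the start of Irx5 and is transcribed away from it. It was the only gene of the tables between members of the chromosome 8 cluster. Crnde stood at 19.1 and 16.5 TPM in control and at 6.36 and 4.83 TPM in Isl1cKO, so its groups did not overlap. Its log2 fold change of -1.52 (SE 0.15) did not pass, with an adjusted p of 0.0561 in limma. The TPM ratio of Irx5 to Crnde was 1.24 and 1.02 in control and 0.244 and 0.217 in Isl1cKO. On chromosome 13, the only tested gene between members was Gm20554, a noncoding gene 0.256 kb from Irx2 on the opposite strand, named after its values were seen. It stood at 2.82 and 2.78 TPM in control and 2.35 and 1.15 TPM in Isl1cKO, and its adjusted p was 0.486 in limma. Mmp2, a matrix metalloprotease gene beyond Irx6 that was also named after its values were seen, stood at 10.2 and 7.85 TPM against 5.15 and 5.01 TPM, with an adjusted p of 0.191 in limma.

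**Figure D5:**
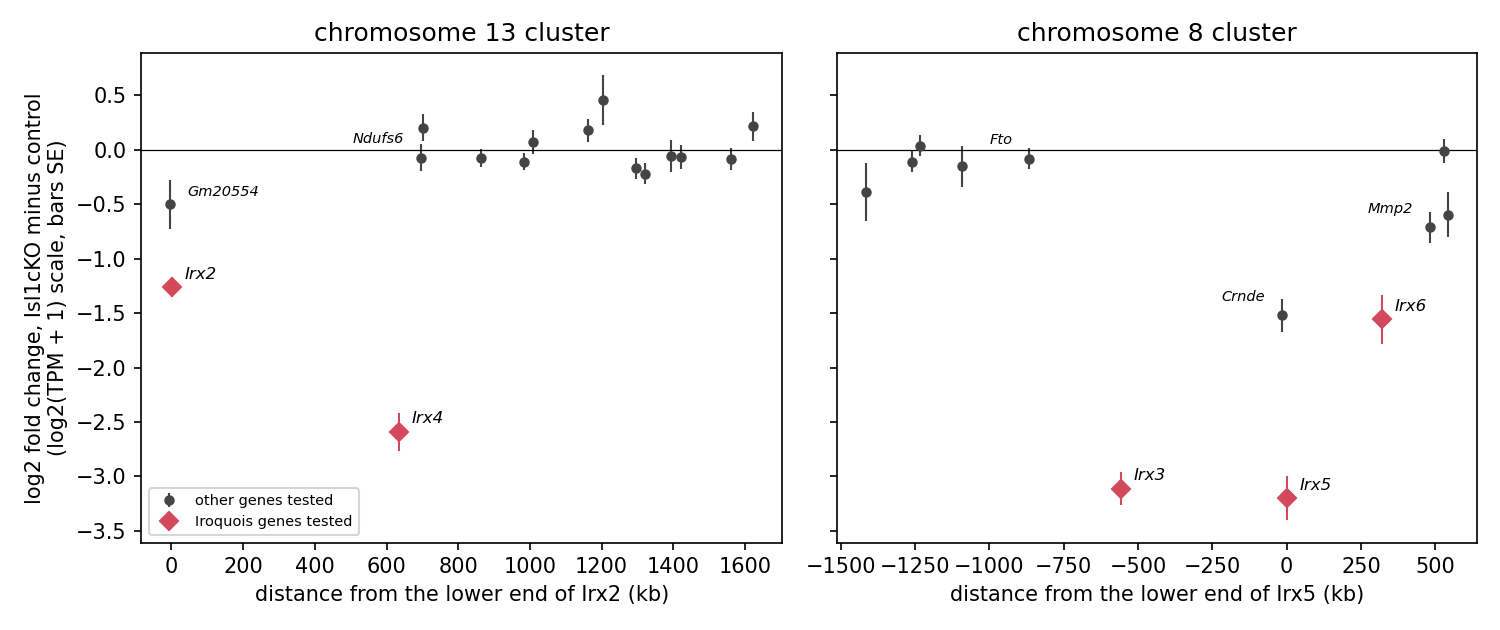
Log2 fold change with its SE for tested genes within 1000 kb of each cluster, against distance in kb from the lower end of Irx2 (left) or Irx5 (right), Iroquois genes as red diamonds and other genes as dark circles. Most other genes lie near 0, Crnde lies at -1.52 beside Irx5, and Mmp2, beyond Irx6, lies at -0.71.

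The genes most like each called member were sought among 13037 tested genes with a regular symbol, by the same distance over 4 libraries. A few libraries that differ mainly by group make many genes alike, so the lists describe these libraries only. For Irx2 they were Itga9, an integrin subunit, at 0.064, Snora21, a small nucleolar RNA, at 0.114, and Sdk1, a synaptic adhesion molecule of the retina, at 0.147. For Irx3 they were Mstn, a secreted TGF-beta family ligand, at 0.186, Nell2, a secreted guidance protein, at 0.378, and Cryba4, a lens crystallin, at 0.398. For Irx4 they were Lmo2, a LIM-only cofactor, at 0.148, Nr0b1, an orphan nuclear receptor, at 0.240, and Shh, the hedgehog ligand made by ganglion cells, at 0.258. For Irx5 they were Nell2 at 0.167, Mstn at 0.276 and Vstm2l at 0.321.

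The other TALE homeobox genes were taken from a list. Of 12, 11 were tested and 0 passed in limma, with a median log2 fold change of 0.10. At an unadjusted p under 0.05 there were 1 lower and 1 higher, beside 8.92% and 3.20% of all genes tested. Pbx2, a homeodomain partner of Hox proteins, stood at 150.6 and 150.1 TPM in control and 160.4 and 184.5 TPM in Isl1cKO. Meis1, a TALE factor of eye progenitors, stood at 134.1 and 134.0 TPM in control and 150.9 and 158.5 TPM in Isl1cKO, and its adjusted p was 0.426 in limma.

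Ganglion cell genes were read beside the family, since bulk RNA cannot tell fewer cells of a type from less RNA per cell. Of the ganglion cell transcription factors 23 of 24 were tested and 0 passed in limma, with a median log2 fold change of 0.02. At an unadjusted p under 0.05 there were 7 lower and 3 higher, beside 8.92% and 3.20% of all genes tested. The most abundant was Atoh7, the bHLH factor of ganglion cell competence, with 1025 and 1352 TPM against 1058 and 1458 TPM. Pou4f2, a factor of early ganglion cells named after its values were seen, stood at 126.0 and 124.1 TPM in control and 135.3 and 119.7 TPM in Isl1cKO. The 7 lower factors, named after their values were seen, were Pou4f1, Pou4f3, Isl2, Ebf1, Ebf3, Klf7 and Eomes, with control to Isl1cKO ratios of mean TPM from 1.61 for Klf7 to 9.04 for Pou4f3. Pou4f3 stood at 4.86 and 2.02 TPM in control and 0.761 and 0 TPM in Isl1cKO. It entered the test through its control values alone, so its lower direction was already set. Pou4f1, a relative of Pou4f2, stood at 19.6 and 19.7 TPM in control and 9.66 and 4.16 TPM in Isl1cKO (adjusted p = 0.268 in limma). Ebf3, a helix-loop-helix factor, stood at 134.6 and 104.8 TPM in control and 47.0 and 29.7 TPM in Isl1cKO (adjusted p = 0.139 in limma). The 3 higher factors were Onecut3, Dlx1 and Dlx2. Of the ganglion cell differentiation genes 15 of 16 were tested, 14 had a negative log2 fold change and 10 an unadjusted p under 0.05 in that direction, with a median of -1.02, beside 63.8% and 8.92% of all genes tested. Only Nell2 passed in limma (log2 fold change -3.03, SE 0.21, adjusted p = 0.0239), from 40.1 and 28.3 TPM to 3.77 and 2.76 TPM. Gap43, a growth cone protein, stood at 877 and 753 TPM in control and 321 and 224 TPM in Isl1cKO, with an adjusted p of 0.0903 in limma.

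The hedgehog pathway, which patterns Irx3 in the neural tube and is fed in the retina by ganglion cell Shh, had 12 of 12 genes tested. Only Gli1, its transcriptional effector and readout, passed in limma, from 96.6 and 65.4 TPM in control to 1.49 and 1.20 TPM in Isl1cKO (log2 fold change -5.11, SE 0.21, adjusted p = 0.00744). At an unadjusted p under 0.05 there were 5 lower and 2 higher genes, beside 8.92% and 3.20% of all genes tested. Among the lower genes, Shh and Hhip, named after their values were seen, entered the test through their control values alone. The median log2 fold change was -0.07. Smo, the signal transducer, stood at 122.3 and 115.5 TPM in control and 118.8 and 126.4 TPM in Isl1cKO. Of the Slit and Robo genes, 5 of 6 were tested and 0 passed in limma. They included 2 lower and 1 higher at an unadjusted p under 0.05, beside the same shares of all genes tested. Slit1, the gene that Irx4 represses in the chick, stood at 27.8 and 25.1 TPM in control and 28.9 and 20.1 TPM in Isl1cKO, with overlapping groups and an adjusted p of 0.838 in limma.

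Marker sums of other tissues differed between the groups for some lists and overlapped for others. Lens markers summed to 185.7 to 228.9 TPM in control and 9.61 to 13.1 TPM in Isl1cKO. Of 10 tested, 5 passed, all lower (Cryaa, Cryba1, Cryba4, Crybb1 and Crybb3), beside 0.465% of all genes tested that passed as lower. Cryba1 and Cryba4 entered the test through their control values alone. Red blood cell markers summed to 2339 to 3296 TPM in control and 183 to 1161 TPM in Isl1cKO, with 6 of 6 tested lower, 0 past the threshold in limma and 5 at an unadjusted p under 0.05, beside 63.8% of all genes tested that were lower and 8.92% at that p. Microglia markers summed to 50.9 to 51.2 TPM in control and 64.1 to 75.6 TPM in Isl1cKO. Of 7, 0 were past the threshold in limma and 4 were higher at an unadjusted p under 0.05, beside 3.20% of all genes tested. Amacrine markers ran from 51.5 to 74.9 TPM against 34.9 to 48.7, photoreceptor precursor markers from 257 to 301 TPM against 189 to 257, and pigment epithelium markers from 36.8 to 45.8 TPM against 27.0 to 37.5, with Rpe65 listed at 0 in every library. Periocular mesenchyme markers summed to 3.01 to 6.97 TPM in control and 1.66 to 5.14 TPM in Isl1cKO, with Foxc1, Foxc2, Twist1 and Lum under 1 TPM throughout. Endothelial markers summed to 63.5 to 81.4 TPM against 59.3 to 62.5, most of it Kdr (69.0 and 57.0 TPM against 56.7 and 55.5). Cdh5, the endothelial cadherin, was listed at 2.55 and 0.357 TPM in control and at 0.211 and 0 TPM in Isl1cKO. Horizontal cell markers summed to 46.1 to 51.4 TPM against 40.8 to 59.9, overlapping like those of pigment epithelium, mesenchyme and bipolar cells. Bipolar markers, a list that holds Isl1, summed to 231 to 272 TPM against 258 to 352, with Vsx1, Grm6 and Cabp5 under 1 TPM in each library. In these last 7 lists 0 genes passed in limma. At an unadjusted p under 0.05 there were 2 of 5 amacrine, 1 of 6 photoreceptor precursor and 1 of 3 bipolar markers tested, all lower, beside 8.92% of all genes tested. Negative log2 fold changes were held by 5 of 5 amacrine, 6 of 6 photoreceptor precursor and 5 of 6 pigment epithelium genes tested. For mesenchyme and endothelium it was 2 of 2 each, and for horizontal and bipolar cells 1 of 3 each, beside 63.8% of all genes. The part of any of these tissues in the Iroquois values was not tested.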

How the data were processed

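Per the labels' protocols, total RNA of frozen retina was selected for poly(A) and made into directional libraries. The submitters' processing notes name Trimmomatic, FastQC, HISAT2, SAMtools, StringTie, DESeq2 and build mm10, with no versions or parameters. Per the file headers, the deposited tables give coverage per base (signal, not scaled to depth), FPKM and TPM for each gene and library. As none of these is a count, count models were left out, and depth in reads is unknown.

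TPM was summed over repeated rows of a gene ID, and 13984 genes with at least 1 TPM in at least 2 libraries entered the test. Genotype was the only term of a model of log2(TPM + 1) in limma 3.58.1 (R 4.3.3, two-sided, constant variance prior). P-values were adjusted by Benjamini-Hochberg over all genes tested, with a threshold of 0.05, and every adjusted p comes from limma. Fold changes on this scale understate those of low genes. The fit was tested on simulated data with independent normal noise and shifts added on the log2 scale. That check did not model the filter or a library that stood apart, so it says little about single calls here.

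The family, the gene lists, the tests and the alternatives were chosen with earlier results of these data known. Named were the members, Isl1, list members past the threshold or among the highest in level, neighbours by fixed names or call, and the 3 genes nearest to each called member. Alternatives were a pseudocount of 0.1, other filters, FPKM, other scalings, a mean-variance trend, the highest row per gene, a replicate block and leaving out each library. Promoters came from RefSeq, and overlapping genes from GENCODE M21. A gene each of the progenitor and mesenchyme marker lists is not reported here.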

Additional observations from a re-analysis of the deposited data

How the results depend on the processing

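All members kept their direction in each fit that gave them a value. Of 69 fits of a member under an alternative, 49 kept the side of the threshold, 19 lost a call, 1 gained one and 0 reversed. With no filter beyond a value above 0, which raises the number of genes tested to 19784, the members past the threshold went from 4 to 0 and all genes called from 69 to 15; Irx2 (-1.26), Irx3 (-3.11), Irx4 (-2.59) and Irx5 (-3.20) lost their calls. At a pseudocount of 0.1 Irx2 (-1.31, adjusted p 0.0505 in limma) lost its call, Irx4 was at -5.14, and 44 genes were called in all. In FPKM Irx4 was at -1.55, and 109 genes were called. With a mean-variance trend 110 genes were called. A filter of 5 TPM removed Irx4, and Irx1 had a value only without a filter. With all 4 libraries kept, the call held in 8 of 10 alternatives for Irx2 and 9 of 10 for Irx3. It held in 8 of 9 for Irx4 and 9 of 10 for Irx5. Irx6 passed in 1 of 10, so the fits of Irx6 that kept their side were uncalled fits.

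With each library left out in turn, the members past the threshold ranged from 0 to 2 and all genes called from 10 to 37. Log2 fold changes ranged from -1.33 to -1.20 for Irx2, from -3.29 to -2.93 for Irx3, from -2.82 to -2.35 for Irx4 and from -3.43 to -2.97 for Irx5; these fits have fewer samples. The replicate numbers pair nothing that the labels name, and deviations of the libraries numbered 1 correlated at 0.126 across genes. With the replicate block 265 genes were called and 5 members passed, Irx6 (-1.56, adjusted p 0.00869 in limma) being added. The difference between the clusters in their change of mean log2(TPM + 1), -1.20, was -0.0237 with no pseudocount, an alternative chosen after seeing the data. Beyond this, the cause of each change was not tested. Coverage below 1 read per base limits Irx4 in Isl1cKO and Irx1 in Isl1cKO replicate 2.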
